A study of Mus musculus with 15 samples.

Results

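The genes described here are markers of leukocytes in whole mouse cornea, a list of 36 genes that holds 11 markers of T and NK cells, Ptprc of all leukocytes, 13 of macrophages and monocytes and 7 of dendritic cells and antigen presentation. It also holds 1 marker of B cells, 1 of mast cells and 2 signalling adaptors of myeloid, NK and mast cells. The genes were listed by name as markers of these cells, with earlier results of these data known, and all 36 were found among the 55357 genes counted. Of these, 23 had enough counts to enter the tests, among 15770 tested genes. The question was which leukocyte lineages could be measured in the tissue and how they varied with genotype and age.

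Corneas of OPA1+/+ mice and of OPA1+/- mice, which carry 1 mutant copy of Opa1, a gene for a GTPase of the inner mitochondrial membrane, were profiled by RNA sequencing. There were 4 OPA1+/+ and 4 OPA1+/- libraries from mice aged 3 months, and 3 OPA1+/+ and 4 OPA1+/- libraries from mice aged 6 months. No treatment, strain, sex or number of animals per library is given in the labels. It is also not given whether the libraries came from separate animals, so p-values measure the spread between these libraries.

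The healthy cornea has no blood vessels and holds few leukocytes. Resident macrophages and dendritic cells lie mainly in the stroma and among epithelial cells, most densely near the limbus, and small numbers of T cells reside in the epithelium. Macrophages clear debris and make complement C1q, dendritic cells and some macrophages present peptides on MHC class II, and T and NK cells carry granzymes that kill infected cells.

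The libraries held 11673240 to 18194946 counts. Levels are given as CPM, the counts of a gene per unit of library size, with totals scaled by trimmed-mean factors. Opa1 ranged from 45.4 to 57.7 CPM among 8 OPA1+/- libraries, below the lowest of 7 OPA1+/+ libraries, which ranged from 65.1 to 73.3 CPM. The tissue label was borne out by 5 genes of corneal epithelium, which summed to 60551 to 72402 CPM, with Krt12, the keratin of this epithelium, at 26070 CPM or more. Genes of blood and lymphatic vessels summed to 8.05 to 17.2 CPM and those of erythrocytes to 1.64 to 3.21 CPM. Each library held Xist at 1416 CPM or more and 4 Y-linked transcripts at 125 CPM or more in sum, so each contained RNA of both sexes. A pair of libraries stood apart by their photoreceptor transcripts. These summed to 147 CPM in OPA1+/- replicate 4 at 3 months and to 141 CPM in OPA1+/+ replicate 1 at 6 months, against 10.2 to 22 CPM in the others. The first of the pair also held lens transcripts, at 107 CPM in sum against 4.66 to 30.0 CPM in the other 14 libraries, and the second was the lowest in these.

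Macrophage and antigen presentation markers were measurable in the cornea, T and NK cell markers were near the limit of detection, and Cd79a and Cpa3, the markers of B and mast cells, exceeded it in no library. A count of 0 allows a level of up to 3 counts, which was 0.165 to 0.257 CPM by library. Above this limit in every library were 12 of 13 macrophage markers, 5 of 7 of dendritic cells and antigen presentation, both adaptors, Ptprc and 1 of 11 T and NK cell markers, Cd8a. In all, 21 of 36 markers were above it in every library and 13 had a count of 0 in at least 1 library. Such a limit, like the Poisson intervals given with some counts, covers the error of counting and no other. In a bulk library, fewer cells of a type and less RNA per cell cannot be told apart.

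Levels of different genes are compared as CPM per kilobase of exon, with the union of all annotated exons as the length, which understates genes with long rare exons such as Ptprc (18313 bases). On this scale Cd74, the invariant chain that escorts MHC class II, had the highest mean, 11.7, and Cd68, a glycoprotein of lysosomes in phagocytes, the next at 11. Itgam, the alpha chain of the integrin CD11b of myeloid cells, followed at 5.65. Then came H2-Eb1 at 4.18, Lyz2 at 3.5, H2-Ab1 at 2.63, H2-Aa at 2.35, C1qa at 1.99, C1qb at 1.95 and Cd14 at 1.31. Gzma led the T and NK cell markers at 0.558, at the 15th rank of 36, and Ptprc was at 0.258. The lowest was Cd79a at 0.00707. Ranges over the 15 libraries overlapped between every pair of neighbours in this order except 1, since the lowest Cd68 value (8.05 CPM per kilobase) exceeded the highest of Itgam (7.01). Cd74 and Cd68, whose ranges overlapped, were at the 88.3th and 87.5th percentile of all genes with a count.

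**Figure D1:**
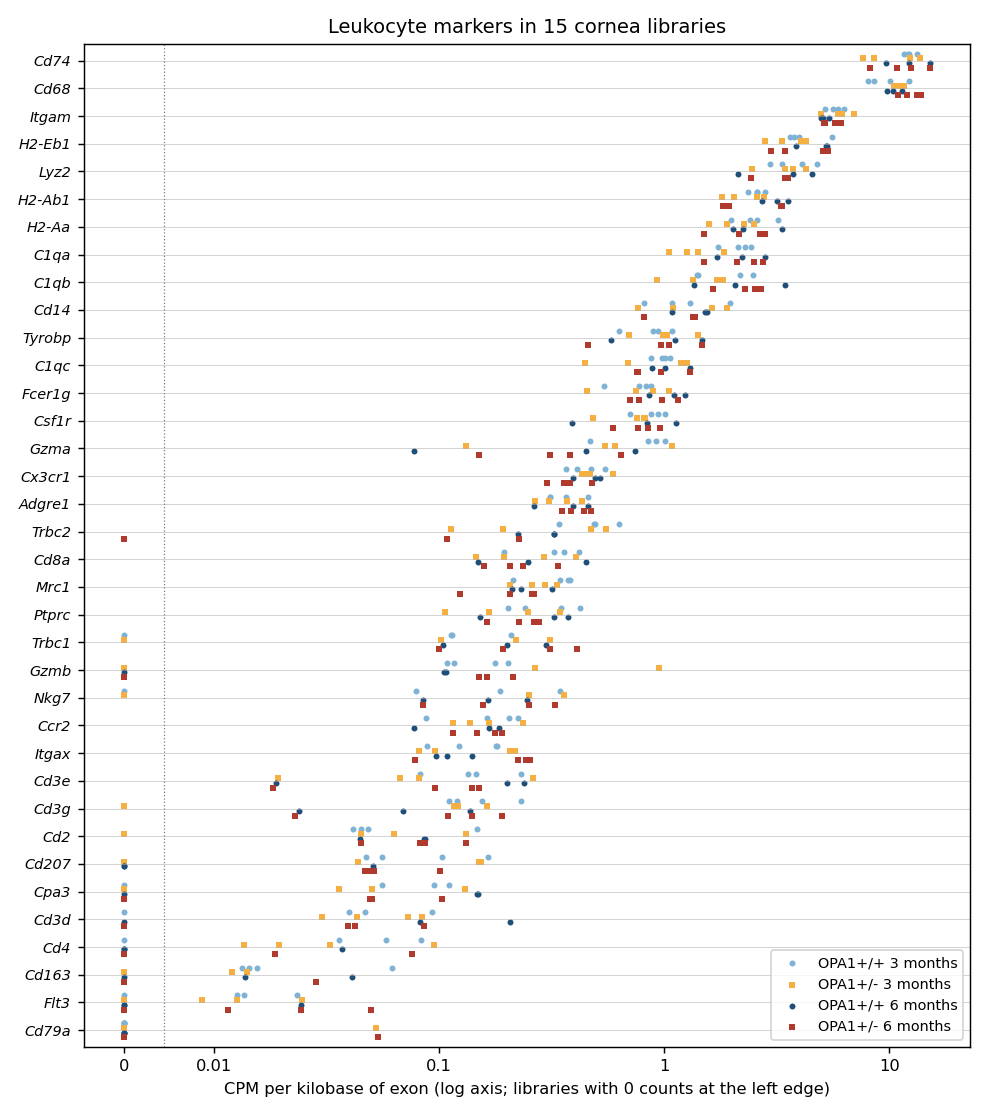
Level of each of the 36 leukocyte markers in CPM per kilobase of exon (log axis) in the 15 libraries, ordered by mean, with symbols for the 4 groups and libraries without a count placed at the left edge. Myeloid and MHC class II genes fill the upper rows, from Cd74 at a mean of 11.7, and 13 markers have a library with 0 counts.

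Ptprc (ENSMUSG00000026395.17) encodes CD45, the membrane phosphatase found on all leukocytes. At 3 months it was at 7.75, 3.7, 6.36 and 4.42 CPM in OPA1+/+ and at 3.05, 6.34, 1.96 and 4.55 CPM in OPA1+/- libraries. At 6 months Ptprc was at 6.84, 5.96 and 2.8 CPM in OPA1+/+ and at 3.01, 5.07, 4.16 and 4.84 CPM in OPA1+/- libraries. Each of the 4 groups held both high and low libraries, and the groups overlapped. OPA1+/- replicate 3 at 3 months was the lowest, at 25 counts, and OPA1+/+ replicate 1 at 3 months the highest, at 92 counts. The coefficient of variation over the 15 libraries was 35.5%, where counting error alone gives 12.6%.

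Among macrophage markers, Cd68 and Itgam varied little between libraries. Cd68 was at 10.8, 12.8, 15.4 and 10.1 CPM in OPA1+/+ and at 13.3, 14.5, 13.9 and 13.3 CPM in OPA1+/- libraries at 3 months. At 6 months Cd68 was at 12.3, 13.1 and 14.3 CPM in OPA1+/+ and at 17.3, 15.1, 16.7 and 13.7 CPM in OPA1+/- libraries. At 6 months 3 of 4 OPA1+/- libraries were above every OPA1+/+ library and the other, replicate 4, lay among them. Cd68 was at a median of 42.5 times the per-kilobase level of Ptprc (20.3 to 104 times over the libraries). The long exon length of Ptprc raises this ratio, and mean CPM was 13.8 for Cd68 and 4.72 for Ptprc. Which cells gave the Cd68 counts was not tested. On the same strand, Eif4a1 (232 CPM) lies 783 bases and Mpdu1 (27.5 CPM) 1571 bases from Cd68, and how far their transcripts add to its count was not tested.

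Itgam (ENSMUSG00000030786.19) was at 29.7, 31.7, 28.3 and 26.1 CPM in OPA1+/+ and at 31.2, 35.2, 29.8 and 25.1 CPM in OPA1+/- libraries at 3 months. At 6 months Itgam was at 27.1, 25 and 25.5 CPM in OPA1+/+ and at 28.7, 30.8, 25.7 and 25.9 CPM in OPA1+/- libraries. The highest library was 1.41 times the lowest, the smallest ratio of any marker with at least 4 counts in every library. Its coefficient of variation, 10.6%, was also the smallest, followed by that of Cd68, 14.1%. Itgam was at a median of 19.8 times the per-kilobase level of Itgb2 (12.6 to 46.6 times over the 15 libraries). Itgb2 is the beta chain that it pairs with at the cell surface. Against Ptprc the median was 21.5 times (13.9 to 55.6 times), a ratio raised by the long exon length of Ptprc. Mean CPM was 28.4 for Itgam and 4.72 for Ptprc. Which cells gave the Itgam counts was not tested. In an earlier annotation 65.2% of the 75-base stretches of Itgam lie also in Gm49368, an overlapping gene of the same strand, and reads there count for neither gene, so its level is uncertain.

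Lyz2, a lysozyme of macrophages and neutrophils, was at 5.39, 3.91, 4.4 and 6.29 CPM in OPA1+/+ and at 3.25, 4.89, 5.63 and 4.55 CPM in OPA1+/- libraries at 3 months. At 6 months Lyz2 was at 5.94, 4.92 and 2.8 CPM and at 4.66, 4.53, 4.66 and 3.2 CPM. Its highest and lowest libraries were both OPA1+/+. It shares 5.96% of its 75-base stretches with Lyz1, a near copy. Of the other macrophage markers, Csf1r, the receptor through which macrophages are maintained, was at 2.25 to 6.54 CPM. Cd14, a receptor for bacterial lipopolysaccharide, was at 1.33 to 3.41 CPM, and Mrc1, the mannose receptor, at 0.789 to 2.44 CPM. Adgre1, the F4/80 antigen, was at 0.854 to 1.54 CPM, and the chemokine receptors Cx3cr1 and Ccr2 at 1.35 to 2.68 and 0.522 to 1.6 CPM. The annotated span of Cx3cr1 overlaps Csrnp1 (28.6 CPM) on its strand, and the exons of Csf1r share 13.9% of 75-base stretches with Hmgxb3 on the other strand. Cd163, a haemoglobin scavenger receptor of tissue macrophages, had 15 counts in all 15 libraries and was not tested.

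The chains of complement C1q, which form 1 protein and lie together on chromosome 4 from base 136607440 to 136626114 (GRCm39), were measured in every library. C1qa was at 2.53, 2.39, 1.81 and 2.21 CPM in OPA1+/+ and at 1.33, 1.91, 1.09 and 1.48 CPM in OPA1+/- libraries at 3 months. At 6 months C1qa was at 2.93, 2.31 and 1.79 CPM in OPA1+/+ and at 2.18, 2.61, 2.87 and 1.56 CPM in OPA1+/- libraries. At 3 months 3 of 4 OPA1+/- libraries were below every OPA1+/+ library and the groups overlapped by 1 library, and at 6 months they overlapped widely. C1qb was at 1.02 to 3.76 CPM and C1qc at 0.862 to 2.53 CPM. The per-kilobase ratio of C1qa to C1qb had a median of 0.988 (0.802 to 1.64), while C1qc was lower on that scale, at 0.968 against 1.99 and 1.95.

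Genes of MHC class II and their invariant chain Cd74 were well above the detection limit in every library. H2-Aa and H2-Ab1 encode the chains of the I-A molecule and H2-Eb1 the beta chain of I-E. They lie within 59.0 kilobases on chromosome 17, from base 34476663 to 34535648 (GRCm39). Transcription of class II genes is known to need factors on an X box and a Y box before the start, bridged by the coactivator CIITA. H2-Ab1 had no promoter in the reference sequences used. The promoters of H2-Aa (chr17:34287774-34288073, minus strand) and H2-Eb1 (chr17:34305617-34305916, plus strand) are shown, and both carry both motifs at like spacing. They are RefSeq sequence of build GRCm38.p6, from 250 bases before to 50 bases after the start, with an X box core (TNGCAAC) and then a Y box (CTGATTGG) in capitals.
H2-Aa: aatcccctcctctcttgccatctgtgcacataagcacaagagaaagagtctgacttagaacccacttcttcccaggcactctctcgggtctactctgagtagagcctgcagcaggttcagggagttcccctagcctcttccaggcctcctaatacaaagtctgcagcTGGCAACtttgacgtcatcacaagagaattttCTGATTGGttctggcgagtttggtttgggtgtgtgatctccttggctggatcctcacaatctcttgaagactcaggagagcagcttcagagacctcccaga
H2-Eb1: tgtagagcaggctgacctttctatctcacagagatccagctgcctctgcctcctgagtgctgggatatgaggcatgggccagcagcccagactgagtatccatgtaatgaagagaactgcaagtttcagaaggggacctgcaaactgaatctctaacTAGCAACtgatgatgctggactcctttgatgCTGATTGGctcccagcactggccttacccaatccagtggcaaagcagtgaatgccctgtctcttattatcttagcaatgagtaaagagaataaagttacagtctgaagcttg
The Y box begins 51 bases before the start in H2-Aa and 62 bases before it in H2-Eb1. The X box core begins 32 and 31 bases before the Y box, in that order. The letters were chosen with these promoters in view. On either strand, the Y box letters were in 4.1% of 32851 promoters of the same length, the X box core letters in 10.4% and both in 0.426%. Of 25 leukocyte markers with a promoter in the table, 3 held both, H2-Aa, H2-Eb1 and Gzma. A match describes these letters and is no evidence of binding.

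Cd74 was at 22.3, 20.7, 20.3 and 19.4 CPM in OPA1+/+ and at 12.9, 20.8, 14.4 and 23.0 CPM in OPA1+/- libraries at 3 months. At 6 months Cd74 was at 25.3, 20.7 and 16.3 CPM in OPA1+/+ and at 13.8, 21.0, 25.5 and 18.1 CPM in OPA1+/- libraries. The OPA1+/- libraries of replicates 1 and 3 at 3 months and replicate 1 at 6 months, were the lowest of the 15, and others of the same groups were among the highest.

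H2-Eb1 was at 10.8, 7.75, 7.07 and 7.32 CPM in OPA1+/+ and at 6.5, 7.87, 5.47 and 8.27 CPM in OPA1+/- libraries at 3 months. At 6 months H2-Eb1 was at 10.2, 10.3 and 7.53 CPM and at 5.79, 10.4, 9.9 and 6.72 CPM. The same 3 OPA1+/- libraries were again lowest. H2-Ab1 was at 6.66, 7.25, 6.05 and 6.63 CPM in OPA1+/+ and at 4.64, 6.65, 5.24 and 7.18 CPM in OPA1+/- libraries at 3 months. At 6 months H2-Ab1 was at 9.1, 8.2 and 6.99 CPM and at 4.66, 8.6, 8.46 and 5.0 CPM. Its 4 lowest values were in OPA1+/- libraries, 2 of each age, while the other 4 OPA1+/- libraries lay inside the OPA1+/+ range. H2-Aa was at 5.72 to 12.6 CPM, and the per-kilobase ratio of Cd74 to H2-Aa stayed between 4.03 and 6.11.

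Itgax, the alpha chain of the integrin CD11c of dendritic cells, was far lower. It was at 0.59, 0.87, 0.864 and 0.425 CPM in OPA1+/+ and at 0.464, 0.994, 0.391 and 1.04 CPM in OPA1+/- libraries at 3 months. At 6 months Itgax was at 0.677, 0.522 and 0.466 CPM in OPA1+/+ and at 0.376, 1.07, 1.22 and 1.17 CPM in OPA1+/- libraries. At 6 months 3 of 4 OPA1+/- libraries were above every OPA1+/+ library and the other was below all of them. Itgax had the largest coefficient of variation among markers with a mean of at least 10 counts, 40.9%, with 31.4% from counting error. Cd207, the langerin of Langerhans cells, had 20 counts and Flt3, a receptor of dendritic cell precursors, 17 counts in all libraries, and neither was tested.

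T and NK cell markers summed to 1.32 to 5.64 CPM over 11 genes. Cd8a, the CD8 chain of cytotoxic T cells, was at 1.18, 1.3, 0.707 and 1.53 CPM in OPA1+/+ and at 0.53, 1.07, 0.704 and 1.48 CPM in OPA1+/- libraries at 3 months. At 6 months Cd8a was at 0.903, 1.64 and 0.543 CPM in OPA1+/+ and at 0.752, 1.23, 0.574 and 0.859 CPM in OPA1+/- libraries. Both genotypes spanned nearly the whole range at each age, and the coefficient of variation, 37.6%, was the second largest (27.2% from counting error). Cd4, of helper T cells, had 25 counts in all, and its per-kilobase mean was 0.0314 against 0.275 for Cd8a.

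Gzma, a granzyme of cytotoxic cells, was at 0.927, 1.01, 0.471 and 0.851 CPM in OPA1+/+ and at 0.133, 0.611, 0.547 and 1.1 CPM in OPA1+/- libraries at 3 months. At 6 months Gzma was at 0.451, 0.745 and 0.0776 CPM in OPA1+/+ and at 0.15, 0.384, 0.646 and 0.312 CPM in OPA1+/- libraries. The lowest value, in OPA1+/+ replicate 3 at 6 months, was 1 count. Gzmb, a second granzyme, had 25 of its 55 counts in OPA1+/- replicate 4 at 3 months, 1.37 CPM, and at most 5 in any other library. That library is the one with both photoreceptor and lens transcripts, and their part in the Gzmb value was not tested.

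Trbc2, a constant region of the T-cell receptor beta chain, was at 0.337, 0.435, 0.236 and 0.34 CPM in OPA1+/+ and at 0.133, 0.382, 0.0782 and 0.329 CPM in OPA1+/- libraries at 3 months. At 6 months Trbc2 was at 0.226, 0.224 and 0.155 CPM in OPA1+/+ and at 0.0752, 0.0, 0.0 and 0.156 CPM in OPA1+/- libraries. The OPA1+/- group at 6 months was the lowest, with 3 counts in all, and Trbc2 had too few counts to be tested. Trbc2 and Trbc1 share 37.7% and 34.6% of their 75-base stretches with each other, so their split is uncertain, and Trbc1 had 10 counts in that group. Cd3e, a CD3 chain of the same receptor, was at 0.0752 to 1.07 CPM and was tested. The other CD3 chains Cd3g and Cd3d, the adhesion receptor Cd2 and the granule protein Nkg7 had 75, 21, 25 and 32 counts in all.

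Cd79a, a chain of the B-cell receptor, had 1 count in OPA1+/- replicate 2 at 3 months, 1 in OPA1+/- replicate 4 at 6 months and 0 in the other 13 libraries. These 2 counts of 201999068 give 0.0099 CPM (95% exact Poisson interval 0.0012 to 0.0358). Of 10 other B and plasma cell genes 3 had no count in any library, among them Ms4a1, which encodes CD20. Cd79b, the partner chain of Cd79a, and Ighm, the mu heavy chain, were measurable, at means of 0.712 CPM (0.331 to 1.41) and 0.876 CPM (0.435 to 1.81). Cpa3, a protease of mast cell granules, was at 0.169, 0.145, 0.0 and 0.0851 CPM in OPA1+/+ and at 0.199, 0.0764, 0.0 and 0.0548 CPM in OPA1+/- libraries at 3 months. At 6 months Cpa3 was at 0.226, 0.224 and 0.0 CPM and at 0.0752, 0.0768, 0.0 and 0.156 CPM. No library exceeded 3 counts of Cpa3, and each group had a library with none.

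Fcer1g and Tyrobp are membrane adaptors that carry signalling motifs for Fc receptors and for activating receptors of myeloid and NK cells. Fcer1g was at 0.674, 0.725, 0.471 and 0.766 CPM in OPA1+/+ and at 0.398, 0.917, 0.782 and 0.657 CPM in OPA1+/- libraries at 3 months. At 6 months Fcer1g was at 0.752, 0.969 and 1.09 CPM and at 0.677, 0.614, 1.0 and 0.859 CPM. Its spread, 25.1%, was below the 31.4% that counting error alone gives, so no difference between libraries was detectable at this depth. Tyrobp was at 0.421, 0.725, 0.629 and 0.595 CPM in OPA1+/+ and at 0.464, 0.688, 0.939 and 0.657 CPM in OPA1+/- libraries at 3 months. At 6 months Tyrobp was at 0.978, 0.745 and 0.388 CPM and at 0.978, 0.307, 0.646 and 0.703 CPM, with the highest value in a library of each genotype.

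The first comparison asked which leukocyte markers differed between the genotypes at 3 months. No marker passed edgeR's quasi-likelihood test at an adjusted p of 0.05 (Benjamini-Hochberg over 15770 genes), where 0.00634% of all genes passed. At an unadjusted p under 0.05 stood 1 of 23 markers, against 9.03% of all genes. That marker was C1qa, whose mean was 2.23 ± 0.313 CPM (SD, n = 4) for OPA1+/+ and 1.45 ± 0.344 CPM (SD, n = 4) for OPA1+/-. Its log2 fold change was -0.62 ± 0.24 (standard error), with an adjusted p of 0.4369 in edgeR's test. Log2 fold changes were negative, that is lower in OPA1+/-, for 16 and positive for 7 of the 23 tested markers, with a median of -0.16, beside 49.1% negative and a median of 0.003 over all genes. By lineage, they were negative for 3 of 3 T and NK cell markers, for Ptprc (-0.47 ± 0.36), for 8 of 12 macrophage markers and for 4 of 5 of dendritic cells and antigen presentation. Markers that varied together between libraries, such as MHC class II genes and Cd74, are counted separately here, so the count of signs is only a description. OPA1+/- replicates 1 and 3 were low in T and NK cell markers, Ptprc and MHC class II genes alike. No tested marker separated the groups without overlap, as 4.58% of all genes did.

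At 6 months the same question gave no call among the markers, where 0.323% of all genes passed. None stood at an unadjusted p under 0.05, against 10.2% of all genes. Cd68 had the smallest p. Its mean was 13.2 ± 0.981 CPM (SD, n = 3) for OPA1+/+ and 15.7 ± 1.61 CPM (SD, n = 4) for OPA1+/-, and its log2 fold change 0.25 ± 0.12, with an adjusted p of 0.4907 in edgeR's test. Itgax had the largest fold change, 0.78 ± 0.43 (adjusted p = 0.5749), with a 95% interval from -0.13 to 1.69. Again 16 markers were negative and 7 positive, with a median of -0.15 beside 0.0024 and 49.3% negative over all genes. The 3 T and NK cell markers were negative, and so was Ptprc (-0.29 ± 0.39). The sign rested on single libraries for some. Gzma (-0.18) turned to 0.48 and Cd8a (-0.28) to 0.22 without OPA1+/+ replicate 2 of 6 months, and Gzma to 0.07 without OPA1+/- replicate 1 of 6 months. Cd74 (-0.08) turned to 0.08 without OPA1+/+ replicate 1 of 6 months and to 0.05 without OPA1+/- replicate 1 of 6 months. No marker separated the groups, as 11.3% of all genes did.

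**Figure D2:**
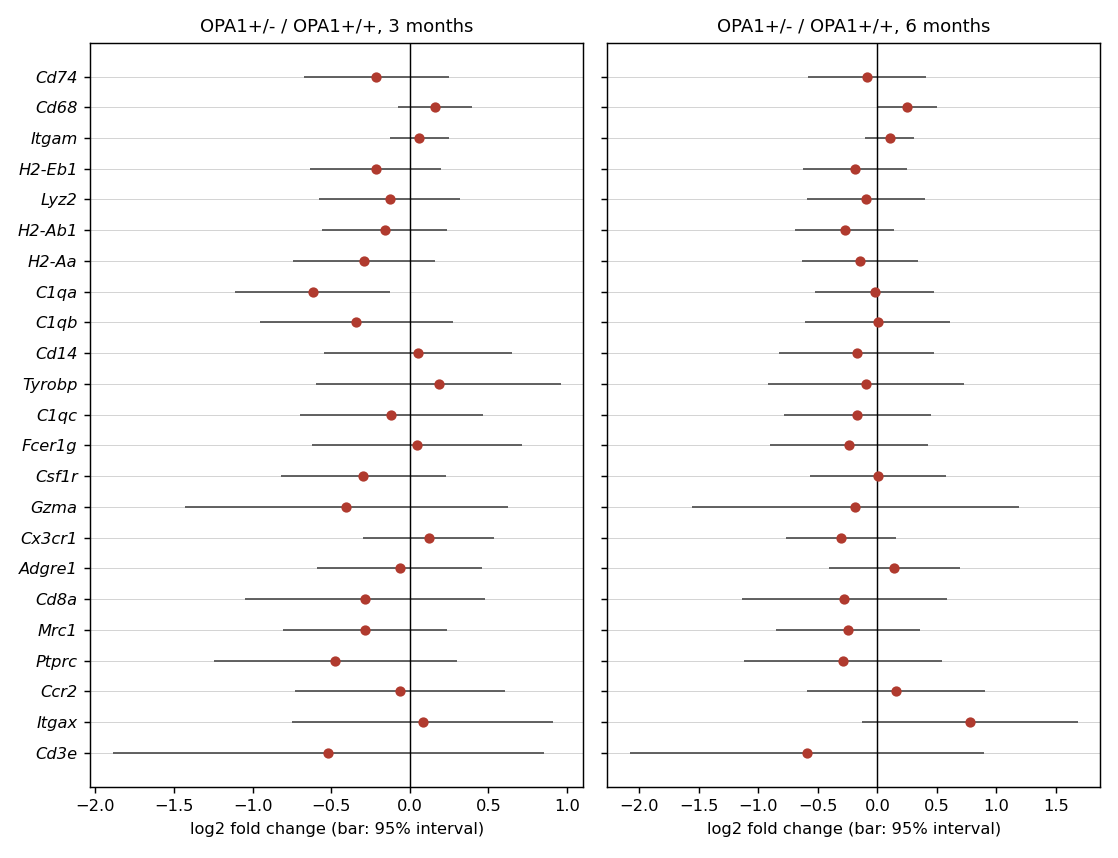
Log2 fold change of OPA1+/- against OPA1+/+ for the 23 tested markers (point) with its 95% interval (bar), at 3 months on the left and 6 months on the right, in the order of their levels. Points lie left of 0 for 16 of 23 markers at each age, with markers that vary together counted separately, and no marker passed the adjusted threshold.

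Averaged over both ages, 0.793% of all genes and no leukocyte marker passed. Cd68, with 0.20 ± 0.08 (adjusted p = 0.2982 in edgeR's test), was the 1 marker at an unadjusted p under 0.05, against 12.4% of all genes. Ptprc had -0.38 ± 0.26 (95% interval -0.95 to 0.19). The intervals differed widely between markers. The interval of Itgam ran from -0.06 to 0.22 and that of Cd74 from -0.49 to 0.19, while Cd3e had -0.56 with an interval from -1.57 to 0.46. Of these intervals, that of Cd3e includes a change of -1 on the log2 scale and those of Itgam and Cd74 do not. The test of whether the genotype difference changed with age called 0.0% of all genes and no marker. At an unadjusted p under 0.05 stood 0 of 23 markers, against 6.91% of all genes. The smallest p was that of C1qa, with 0.60 ± 0.34 (adjusted p = 0.7898).

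Age was compared within each genotype, with the same libraries as the genotype comparisons. In OPA1+/+ no marker passed, where 0.0507% of all genes passed, and none stood at an unadjusted p under 0.05 (10.2% of all genes). In OPA1+/- no marker passed, where 0.0824% of all genes passed, and C1qa and C1qb stood at an unadjusted p under 0.05 (9.05% of all genes). Mean C1qa was 1.45 ± 0.344 CPM at 3 months and 2.31 ± 0.571 CPM at 6 months (SD, n = 4 each), and its log2 fold change 0.67 ± 0.23, with an adjusted p of 0.3866 in edgeR's test. C1qb had 0.65 ± 0.28 (adjusted p = 0.514), and C1qc, the third chain of the same protein, 0.08 ± 0.28. In OPA1+/+ the values were 0.07 ± 0.24 for C1qa, 0.30 ± 0.30 for C1qb and 0.13 ± 0.30 for C1qc.

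Averaged over both genotypes, no marker passed, where 0.412% of all genes passed, and 3 of 23 markers against 11.9% of all genes stood at an unadjusted p under 0.05. They were C1qb with 0.48 ± 0.21 (adjusted p = 0.3667), C1qa with 0.37 ± 0.17 (adjusted p = 0.3895) and Itgam with -0.14 ± 0.07 (adjusted p = 0.4047), all in edgeR's test. Gzma had the lowest value, -0.81 ± 0.40 (adjusted p = 0.4446). C1qb went to 0.26 without OPA1+/+ replicate 1 of 6 months, a library with photoreceptor transcripts. Gzma went to -0.53 without OPA1+/- replicate 4 of 3 months, the other such library. Log2 fold changes with age were positive for 13 and negative for 10 markers, with a median of 0.03. In the same comparison they were negative for 6 of 6 tested conjunctiva genes, 4 of 4 vessel genes and 5 of 5 stroma genes, with medians of -0.31, -0.47 and -0.27. Of these, Clca3b of conjunctiva fell by 1.98 (adjusted p = 0.03359) and Kdr of vessels fell by 0.52 (adjusted p = 0.03871) on the log2 scale in edgeR's test. Conjunctiva genes summed to 1802 ± 137 and 1748 ± 215 CPM in OPA1+/+ and OPA1+/- corneas at 3 months (SD, n = 4 each), and to 1554 ± 175 (n = 3) and 1545 ± 95.9 CPM (n = 4) at 6 months. The part of these tissues in the markers' values was not tested. No marker separated the ages in either genotype, as 8.13% of all genes did in OPA1+/+ and 6.04% in OPA1+/-. The DESeq2 Wald test called no marker in any of the 7 comparisons either. It gave an adjusted p for 3 to 15 of the markers in a comparison.

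Libraries of 1 group differed among themselves in their leukocyte markers. The 11 T and NK cell markers summed to 4.38, 4.71, 3.3 and 4.68 CPM in OPA1+/+ and to 1.79, 5.12, 1.88 and 5.64 CPM in OPA1+/- libraries at 3 months. At 6 months they summed to 3.76, 4.77 and 1.32 CPM in OPA1+/+ and to 1.73, 4.15, 2.87 and 3.12 CPM in OPA1+/- libraries. The 4 lowest libraries, OPA1+/- replicates 1 and 3 at 3 months, OPA1+/+ replicate 3 at 6 months and OPA1+/- replicate 1 at 6 months, came from 3 of the 4 groups. They held 27, 24, 17 and 23 counts of these genes, with 95% exact Poisson intervals of 17.8 to 39.3, 15.4 to 35.7, 9.9 to 27.2 and 14.6 to 34.5, where the other 11 libraries held 40 to 103.

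These 4 libraries were also the 4 lowest in Ptprc, at 3.05, 1.96, 2.8 and 3.01 CPM against 3.7 to 7.75 CPM in the others. The 27 other T and NK cell genes that are no members of the marker list placed the same libraries lowest, at 4.97, 4.22, 6.6 and 4.21 CPM against 6.74 to 11 CPM. MHC class II chains and Cd74 summed to 31.2, 31.1, 39.4 and 30.0 CPM in them and to 38.0 to 57.2 CPM in the others, with 1 of the 4 above the lowest of the others. Macrophage markers, which summed to 57.8 to 74.4 CPM in all libraries, were at 61.8, 65.9, 57.8 and 69.6 CPM in these 4, from the lowest value to the upper part of the range. Most of this sum came from Itgam and Cd68, at means of 28.4 and 13.8 CPM, so it says little of the other macrophage markers. C1q chains summed to 3.65, 3.44, 4.97 and 6.54 CPM in these 4 and to 4.84 to 8.65 CPM in the others. Conjunctiva is a tissue next to the cornea that is rich in T cells. The 9 genes listed for conjunctiva and goblet cells summed to 1691, 1758, 1516 and 1502 CPM in these 4 libraries. These sums lay inside the range of the others (1401 to 2030 CPM). Whether the 9 genes mark conjunctiva alone was not tested. The part of conjunctiva in the markers' values of these libraries was not tested. The 4 libraries were singled out after their values were seen, and no test was made on them.

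**Figure D3:**
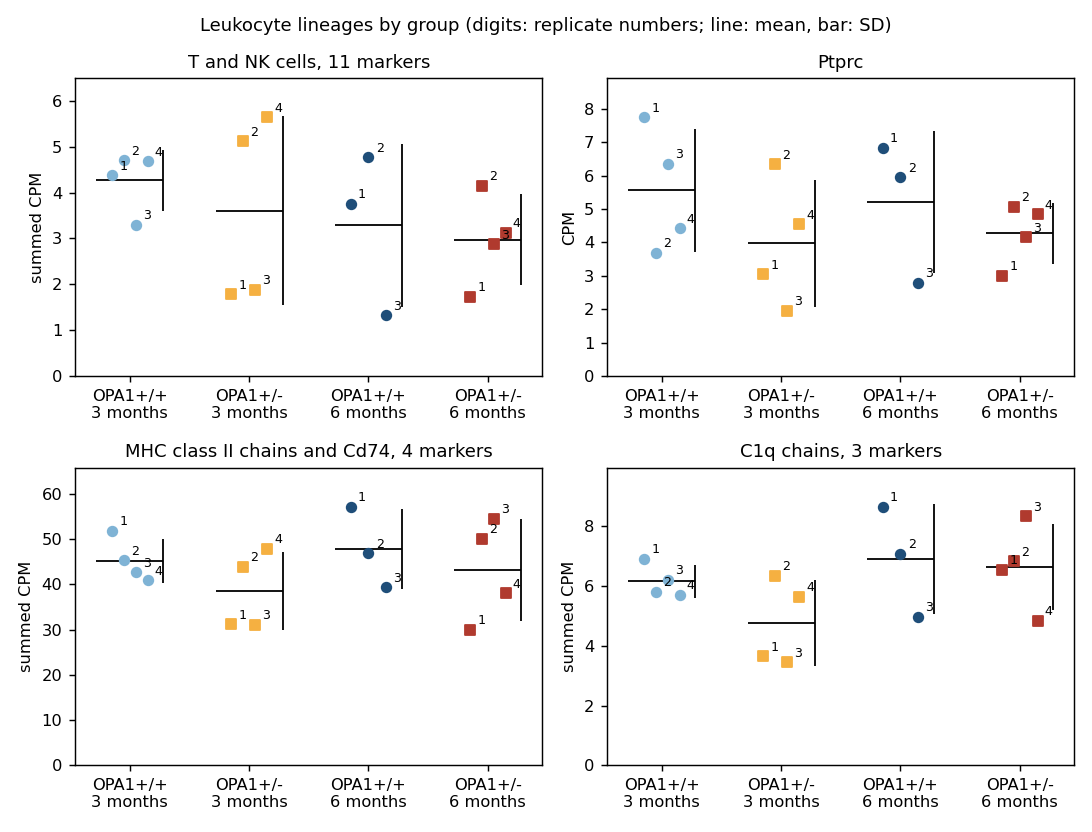
Summed CPM of the 11 T and NK cell markers, CPM of Ptprc, and summed CPM of MHC class II chains with Cd74 and of C1q chains, by group, with 1 symbol per library labelled by its replicate number, the mean as a line and the SD as a bar. OPA1+/- replicates 1 and 3 at 3 months, OPA1+/+ replicate 3 and OPA1+/- replicate 1 at 6 months are the lowest 4 libraries for T and NK cell markers and for Ptprc.

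Of the pair with photoreceptor transcripts, OPA1+/+ replicate 1 at 6 months was the highest of all libraries in MHC class II genes (57.2 CPM), in C1q chains (8.65 CPM) and in Csf1r (6.54 CPM). OPA1+/- replicate 4 at 3 months was the highest in T and NK cell markers (5.64 CPM), 25 of its 103 counts being Gzmb. Without both libraries no marker was called in any of the 7 comparisons, and their part in these levels was not tested.

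**Figure D4:**
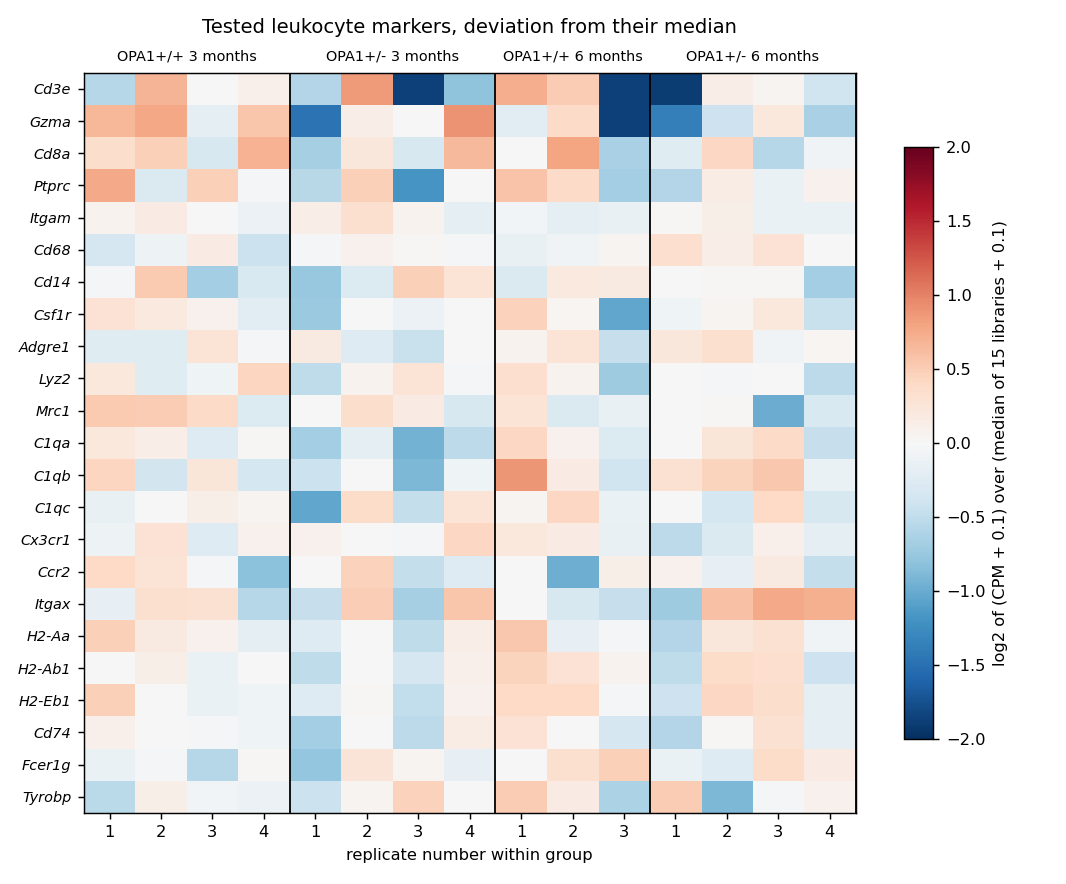
Deviation of each tested marker from its median over the 15 libraries, as log2 of (CPM + 0.1) over (median + 0.1), with libraries in columns by group and replicate number. Deviations run from -1.89 to 0.89, with the darkest blue in Cd3e and Gzma of single libraries, and the 4 MHC class II rows change colour together.

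The spread between libraries exceeded counting error for most abundant markers. The coefficient of variation of Cd74 was 19.7%, with 6.14% from counting error, and those of H2-Aa, H2-Ab1 and H2-Eb1 were 22.4%, 21.4% and 21.7%, with 9.13%, 10.5% and 9.57%. C1qb had 33.9% with 18.7% from counting error, and Csf1r 24.5% with 12.7%. Adgre1 (18.9%) and Cx3cr1 (17.6%) stayed below their counting error of 24.7% and 19.2%, so differences between libraries in these were not detectable at this depth.

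**Figure D5:**
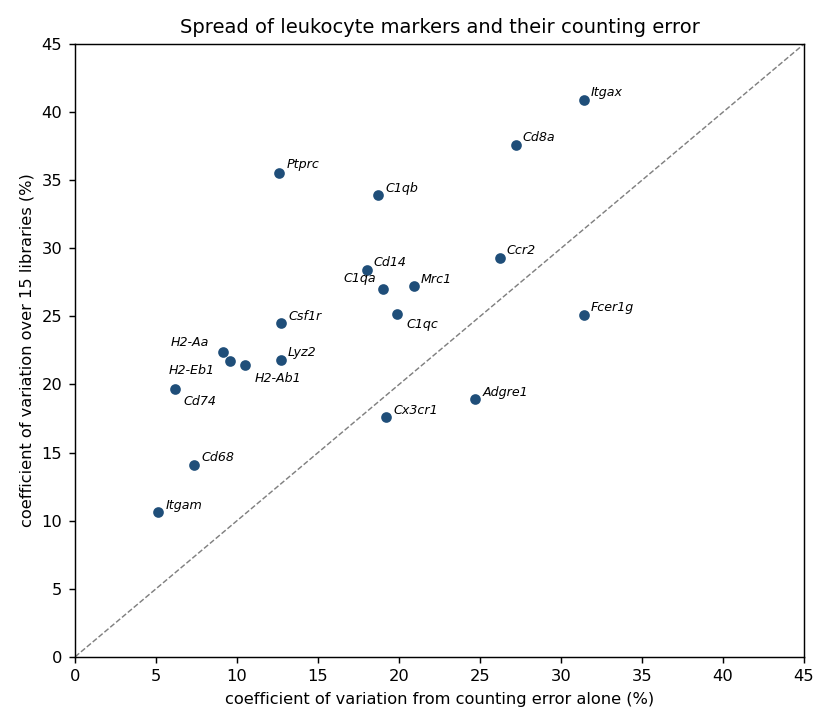
Coefficient of variation over the 15 libraries (vertical, percent) against the value from counting error alone (horizontal, percent) for markers with a mean of at least 10 counts, with equality as a dashed line. Ptprc lies farthest above the line, at 35.5% over 12.6%, and Fcer1g, Adgre1 and Cx3cr1 lie below it.

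Among other genes of the same lineages none was called either. Of 17 other genes found in all leukocytes 15 were tested, and none was called in any comparison. The most abundant were Arhgdib, a regulator of small GTPases, at 70.6 CPM and Ptpn6, a phosphatase, at 27.0 CPM. On the per-kilobase scale, which understates Ptprc, they were at 41.3 and 9.62, against 0.258 for Ptprc. Which cells gave their counts was not tested. Of 27 other T and NK cell genes 6 were tested and none was called. The smallest p was that of Cd5, a co-receptor of T cells, in the genotype comparison over both ages (-0.60 ± 0.20, adjusted p = 0.1758 in edgeR's test). At 6 months it was that of Itgae, the integrin chain of T cells resident in epithelium (-1.09 ± 0.44, adjusted p = 0.3892). Klrb1c, the NK1.1 receptor, had no count in any library, and Ncr1, a defining NK cell receptor, had 2 counts in all. Trac, the constant region of the T-cell receptor alpha chain, was at 0.436 CPM, while Trdc of the delta chain was at 0.0535 CPM.

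Of 22 other macrophage genes 9 were tested and none was called. Lgmn, a lysosomal protease found in many cell types, was at 69.6 CPM, while some genes of particular macrophage subsets were at or near 0. Trem2, a lipid receptor, had 35 counts in all libraries, Timd4, a receptor for dying cells, had 9, and Marco and Cd209f had none. Other genes of this list were above 0 in every library. Among them, on the per-kilobase scale, Mertk had a mean of 1.95, Folr2 1.31, Aif1 0.822 and Tmem119 0.663. Of 11 neutrophil and inflammatory monocyte genes 1, S100a9, was tested and not called, and 4 had no count in any library. Of 16 other genes of dendritic cells and antigen presentation 6 were tested and none was called. Among them were Ciita, the coactivator of class II genes, at 1.17 CPM (6 months, -0.56 ± 0.33, adjusted p = 0.5957) and H2-DMb1, of peptide loading, at 2.73 CPM (age over both genotypes, 0.31 ± 0.16, adjusted p = 0.4662). Of 10 other B and plasma cell genes 2 were tested, and of 9 other mast cell genes 1, and none was called. Kit, the receptor of mast cells and melanocytes, was at 346 CPM, while Mcpt4 and Cma1, mast cell proteases, were at 0.0458 and 0.0258 CPM. The 5 genes listed for pigment cells of the uvea summed to 5.11 to 9.78 CPM. Which cells gave the Kit counts was not tested.

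Of 35 chemokines, growth factors and cytokines that act on leukocytes 17 were tested, and 1 was called. Kitl, the ligand of Kit, fell by 0.23 ± 0.05 on the log2 scale in OPA1+/- over both ages (adjusted p = 0.0438 in edgeR's test). In that comparison 0.793% of all genes passed, and the list was tested in 7 comparisons. At 3 months mean Kitl was 45.6 ± 0.626 CPM for OPA1+/+ and 35.7 ± 2.74 CPM for OPA1+/- (SD, n = 4 each). The means at 6 months were 41.9 ± 5.05 CPM (n = 3) and 39.0 ± 2.54 CPM (n = 4), in the same order. The call was lost in 11 of 15 fits that left out 1 library, without the pair with photoreceptor transcripts (adjusted p = 0.2023) and with replicate numbers as a block (adjusted p = 0.0758), with adjusted p from 0.003825 to 0.2023 over all alternatives. The log2 fold change itself stayed between -0.27 and -0.17 over the alternatives and was -0.23 with the block. Cxcl14, a chemokine of epithelia, had the smallest p of the list with age, over both genotypes (0.79 ± 0.22, adjusted p = 0.1295), and did not pass. Il34, a second ligand of the Csf1r receptor, had 0.49 ± 0.19 at 6 months (adjusted p = 0.3558). Cx3cl1, the ligand of Cx3cr1, was at 53.1 CPM and Csf1, the first ligand of Csf1r, at 10.6 CPM, and neither was called.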

How the data were processed

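Total RNA of mouse cornea was depleted of ribosomal RNA and sequenced as single 75-base reads from strand-specific libraries, per the labels' protocols. The deposited values are read counts per gene, made by the authors with featureCounts 2.0.1 on exons of GENCODE mouse release 28 with strand setting 2, per the file headers. The submitters' processing notes name mm10 and DESeq2, whereas release 28 is on GRCm39. For the aligner, no name is given in the sources used here. Symbols matched 52081 of 55357 identifiers (94.1%). No row lacked a gene.

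CPM used trimmed-mean factors (0.986 to 1.02). One edgeR 4.0.16 quasi-likelihood model (R 4.3.3) with a mean per group was fitted to 15770 genes kept by filterByExpr in all 15 libraries (11 residual degrees of freedom, biological coefficient of variation 0.0884) and was tested on simulated data. Genotype was tested at each age and over both, age in each genotype and over both, and their interaction. Adjusted p-values are Benjamini-Hochberg over all genes. Alternatives were DESeq2 1.42.0 size factors and its Wald test, other filters, a replicate block, only the groups compared, and each library left out. A fit without the pair with photoreceptor transcripts was added after seeing the data.

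The markers and lists were chosen with earlier results of these data known. Values in every library are given for markers past the threshold, the 3 most abundant per lineage on the per-kilobase scale, and the 2 with the largest and the 2 with the smallest coefficient of variation. Of other lists, genes past the threshold or with the smallest p are named. C1qa, Gzmb, Itgb2, Trac, Trdc, Klrb1c, Ncr1, Mertk, Folr2, Aif1, Tmem119 and the most and least abundant genes of the other lists were named after their values were seen. Same-numbered libraries of different groups did not deviate together (median correlation 0.009), so numbers were not used as pairs. No libraries agreed within sampling noise. Shared 75-base stretches were counted in GENCODE transcripts of release 21.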

Additional observations from a re-analysis of the deposited data

Results flagged for a closer look

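In OPA1+/- corneas at 6 months, replicate 4 stood apart from the other 3 libraries of its group in a pair of macrophage markers. Cd14 was at 1.41 CPM in it and at 2.33 to 2.38 CPM in the others. Lyz2 was at 3.2 CPM in it and at 4.53 to 4.66 CPM in the others. In each case the gap to the nearest library took up more of the group's range (0.951 and 0.908) than Dixon's test allows for 4 libraries. Chance alone picks out about 1 in 20 groups, and 69 groups of values were looked at. The values of the other 3 libraries lay unusually close together, and 1.41 and 3.2 CPM lay inside the range of the other groups. This library was also the lowest of its group in C1q chains (4.84 CPM) and in the sum of macrophage markers (57.8 CPM). That sum includes Cd14, Lyz2 and the C1q chains, so it is no separate observation.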

How the results depend on the processing

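No leukocyte marker was called under any of the 22 alternatives, 15 of which left out 1 library. The smallest adjusted p of a marker was 0.07578, for Cd68 in the genotype comparison over both ages without OPA1+/+ replicate 3 of 3 months, where its alternatives ran from 0.07578 to 0.5433. The genotype difference at 6 months changed sign for 3 markers. Cd74 ran from -0.24 to 0.08 with 1 library left out and was 0.08 without the pair with photoreceptor transcripts, Gzma ran from -0.66 to 0.48 and Cd8a from -0.58 to 0.22. Itgax at 6 months stayed between 0.64 and 1.04, and Ptprc between -0.77 and -0.27 at 3 months and between -0.59 and -0.04 at 6 months. Over all genes, the calls behind the background shares moved from 1 to between 0 and 45 for genotype at 3 months, from 51 to between 2 and 197 at 6 months, and from 125 to between 16 and 309 over both ages. For age they moved from 8 to between 0 and 169 in OPA1+/+, from 13 to between 1 and 83 in OPA1+/- and from 65 to between 18 and 250 over both genotypes, and for the interaction from 0 to between 0 and 22. With the replicate number as a block, which pairs libraries by number alone, 0 markers were called and the gene counts were 0, 48, 90, 0, 3, 42 and 0 in that order. Same-numbered libraries had correlations from -0.145 to 0.245 in 21 pairs, and 4 of 15 libraries were closest to their own number. The cause of these changes was not tested. Depth limited T and NK cell, B cell and mast cell markers, 10 of 13 of which were not tested for want of counts.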
